A study of Homo sapiens with 30 samples.

Results

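The genes described here encode proteins of the nuclear lamina and chromatin proteins of the high mobility group (HMG): the lamins LMNB1, LMNB2 and LMNA, the lamina-bound proteins LBR and TMPO, the HMG-box proteins HMGB1, HMGB2 and HMGB3, and the AT-hook proteins HMGA1 and HMGA2. A gene was included through the array feature whose only symbol it was in the platform's probe table. This gave 9 of the 10 genes, among 19912 genes named by a feature of their own and 52329 features in all. Each of the 9 had a single such feature. The feature of HMGA1 carries a second symbol as well, and HMGA1 is not reported. The features were chosen by name alone, although the list of genes was drawn up with earlier results of these data known.

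The study followed WI-38, an established line of human lung fibroblasts that stops dividing after a limited number of divisions, through both a RAF-induced and a replicative senescence course on 30 Affymetrix HTA 2.0 arrays of total RNA. The labels gave 15 groups of 2 arrays, and values are deposited to 1 decimal, so that arrays differing by less than that step read alike. In the RAF course, cells carrying a doxycycline-inducible RAF oncogene were sampled at T0 and, under 100 ng/ml doxycycline, at 12 h, 24 h, 48 h, 72 h and 96 h. The replicative course was sampled at T0 and, during proliferative exhaustion under 21% oxygen, at 144, 264, 432 and 624 h and later at 792, 1008, 1368 and 2112 h. The design text lists fewer replicative times than the labels do. Growth medium, 3% oxygen and 5% carbon dioxide are given for all cells alike. No doxycycline-treated group without the RAF transgene was analysed here, so that RAF, doxycycline and time cannot be told apart, nor can the oxygen step and time in the replicative course. Biological replication is stated in the design for RAF alone, and p-values of the replicative course may thus reflect only technical spread.

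Some arrays stood apart in ways that do not follow their labels. The first principal component held 64.2% of the variance and split 12 arrays (replicative T0 and the labels of 624 h and later) from 18 (every RAF array and replicative 144 h, 264 h and 432 h). A list of 24 mitotic genes had its lowest group mean, 5.26 on the log2 scale, under the label RAF T0, and 8.27 under RAF 12 h. A list of 15 genes that report ERK signalling, which lies downstream of RAF, averaged between 7.79 and 8.01 in all 6 RAF groups, 8.95 at replicative T0, 7.80 to 8.02 from replicative 144 h to 624 h, and 9.16 to 9.32 from 792 h to 2112 h. The 13 measured secretory genes of senescence averaged 6.38 to 6.55 in the RAF groups and 9.25, their highest, at replicative 792 h. No array was moved to another group. Whether labels of some arrays were exchanged cannot be told from the values, and an exchange would change what a direction stands for. Directions and times are therefore those of the labels. Over the 30 arrays, all 9 measured fibroblast markers averaged above 5.5, the median of RAF T0 replicate 1. VIM averaged 11.8 and COL1A2 11.1, although LUM averaged 4.6 at replicative 792 h. Above that median also lay 4 of 6 epithelial markers (KRT18 at 8.70), 3 of 6 endothelial ones (TEK at 8.07) and 1 of 3 leukocyte ones (CD14 at 6.06). EPCAM (3.84), CDH1 (4.77), PECAM1 (4.31) and CD3E (5.02) lay below it.

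The nuclear lamina is a mesh of lamin filaments under the inner nuclear membrane that holds peripheral heterochromatin in place. Lamins of the B type stay attached to the membrane through a lipid anchor, and loss of lamin B1 is a widely used mark of senescent fibroblasts. HMG-box proteins bend DNA. HMGB1 can leave the nucleus and act outside the cell as an alarm signal, and HMGB2 falls early when cells enter senescence. HMGA proteins bind the minor groove of AT-rich DNA and are components of the heterochromatin foci seen in senescent fibroblasts.

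Promoter windows are shown because several of these genes had levels close in pattern to those of the mitotic genes, whose promoters are known for CCAAT boxes bound by NF-Y and for CHR elements bound by the DREAM complex. RefSeq windows of GRCh38.p14, from 250 bases before to 50 bases after an annotated start, were at hand for 8 of the 10 genes, HMGA1 included. For each measured gene with more than 1 window, the one with the most motif matches is printed, which favours matches. Capitals mark CCAAT, read as ATTGG where it lies on the opposite strand. They also mark the CHR letters TTTGAA or else TTTAAA, each searched on both strands. The last of these reads the same on either strand.
LMNB1, chr5:126776886-126777185, plus strand: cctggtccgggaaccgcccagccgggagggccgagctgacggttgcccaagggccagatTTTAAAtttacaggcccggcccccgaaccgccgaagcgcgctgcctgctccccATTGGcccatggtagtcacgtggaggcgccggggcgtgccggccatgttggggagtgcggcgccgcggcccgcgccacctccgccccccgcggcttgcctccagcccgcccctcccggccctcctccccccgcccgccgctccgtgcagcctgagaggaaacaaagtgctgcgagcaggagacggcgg
LMNB2, chr19:2456910-2457209, minus strand: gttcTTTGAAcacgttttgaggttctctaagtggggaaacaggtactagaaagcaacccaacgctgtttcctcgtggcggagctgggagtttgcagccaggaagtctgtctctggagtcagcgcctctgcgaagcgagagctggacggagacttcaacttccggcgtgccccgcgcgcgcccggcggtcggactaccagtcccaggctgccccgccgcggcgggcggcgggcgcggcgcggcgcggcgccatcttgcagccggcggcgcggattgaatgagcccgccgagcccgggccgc
LMNA, chr1:156082323-156082622, plus strand: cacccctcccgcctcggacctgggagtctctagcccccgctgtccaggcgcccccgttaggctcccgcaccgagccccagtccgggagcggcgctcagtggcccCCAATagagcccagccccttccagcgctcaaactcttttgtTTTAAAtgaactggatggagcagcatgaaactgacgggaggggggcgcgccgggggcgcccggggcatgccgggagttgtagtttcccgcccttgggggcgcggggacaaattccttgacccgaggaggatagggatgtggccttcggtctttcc
LBR, chr1:225428772-225429071, minus strand: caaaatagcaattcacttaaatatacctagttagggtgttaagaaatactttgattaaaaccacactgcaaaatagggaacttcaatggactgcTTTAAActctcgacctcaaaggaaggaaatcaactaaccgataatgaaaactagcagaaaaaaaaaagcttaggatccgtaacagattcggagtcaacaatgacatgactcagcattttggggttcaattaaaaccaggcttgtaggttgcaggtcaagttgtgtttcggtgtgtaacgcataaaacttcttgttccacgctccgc
TMPO, chr12:98515323-98515622, plus strand: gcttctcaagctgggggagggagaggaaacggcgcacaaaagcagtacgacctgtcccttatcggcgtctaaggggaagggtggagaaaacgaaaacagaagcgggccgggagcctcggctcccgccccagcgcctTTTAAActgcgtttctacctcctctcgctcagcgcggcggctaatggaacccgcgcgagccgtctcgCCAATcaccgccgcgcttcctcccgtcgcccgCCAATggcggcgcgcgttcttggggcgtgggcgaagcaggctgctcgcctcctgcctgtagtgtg
HMGB1, chr13:30465887-30466186, minus strand: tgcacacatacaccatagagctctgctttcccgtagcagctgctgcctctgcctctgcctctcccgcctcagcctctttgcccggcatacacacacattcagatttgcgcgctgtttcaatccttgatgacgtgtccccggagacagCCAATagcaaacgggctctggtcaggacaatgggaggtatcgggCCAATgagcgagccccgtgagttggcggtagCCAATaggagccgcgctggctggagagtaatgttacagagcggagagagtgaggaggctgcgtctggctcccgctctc
HMGB3, chrX:150983085-150983384, plus strand: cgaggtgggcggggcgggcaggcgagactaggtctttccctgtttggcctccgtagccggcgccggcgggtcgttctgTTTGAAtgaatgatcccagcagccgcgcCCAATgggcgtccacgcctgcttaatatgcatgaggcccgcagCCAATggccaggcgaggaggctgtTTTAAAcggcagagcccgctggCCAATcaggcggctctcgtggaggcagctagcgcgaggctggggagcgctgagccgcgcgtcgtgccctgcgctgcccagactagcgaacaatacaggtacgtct
CCAAT stood once in the LMNB1 window printed and in that of LMNA, at 2 places in that of TMPO, and at 3 places in those of HMGB1 and HMGB3. Among 35116 windows of the same length, 34.6% hold CCAAT and 10.8% hold it at 2 or more places. The LMNB2 and LBR windows held none. TTTGAA or TTTAAA, present in 24% of all windows, stood in 6 of the 7 windows shown. HMGB1's was the exception, although another HMGB1 window, not shown, holds TTTGAA. The shares over all windows come from windows not picked for their matches, so that no excess can be read from these counts. These letters are matches to a short string, and no binding was measured.

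LMNB1, the main B-type lamin of dividing fibroblasts, had the widest range of the 9 genes, 3.10 on the log2 scale between its highest and lowest group means (8.57-fold). In the RAF course its 2 arrays read 5.1 and 5.4 at T0, 8.1 and 8.2 for 12 h, 5.8 and 5.6 for 24 h, 5.8 and 6.1 for 48 h, 6.0 and 6.2 for 72 h, and 7.5 and 7.4 for 96 h. High values thus came at 12 h and 96 h, with no overlap with T0 at any later time. In the replicative course LMNB1 read 7.2 and 7.3 at T0, 6.8 and 6.9 for 144 h, 5.5 and 5.6 for 264 h, 5.5 and 5.4 for 432 h, and 7.4 and 7.6 for 624 h. From there it read 5.3 and 5.2 for 792 h, 5.0 and 5.1 for 1008 h, 5.3 and 5.3 for 1368 h, and 6.5 and 6.6 for 2112 h. Only the label 624 h reached above T0 in that course, and its neighbours 432 h and 792 h were lower on every array.

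**Figure D1:**
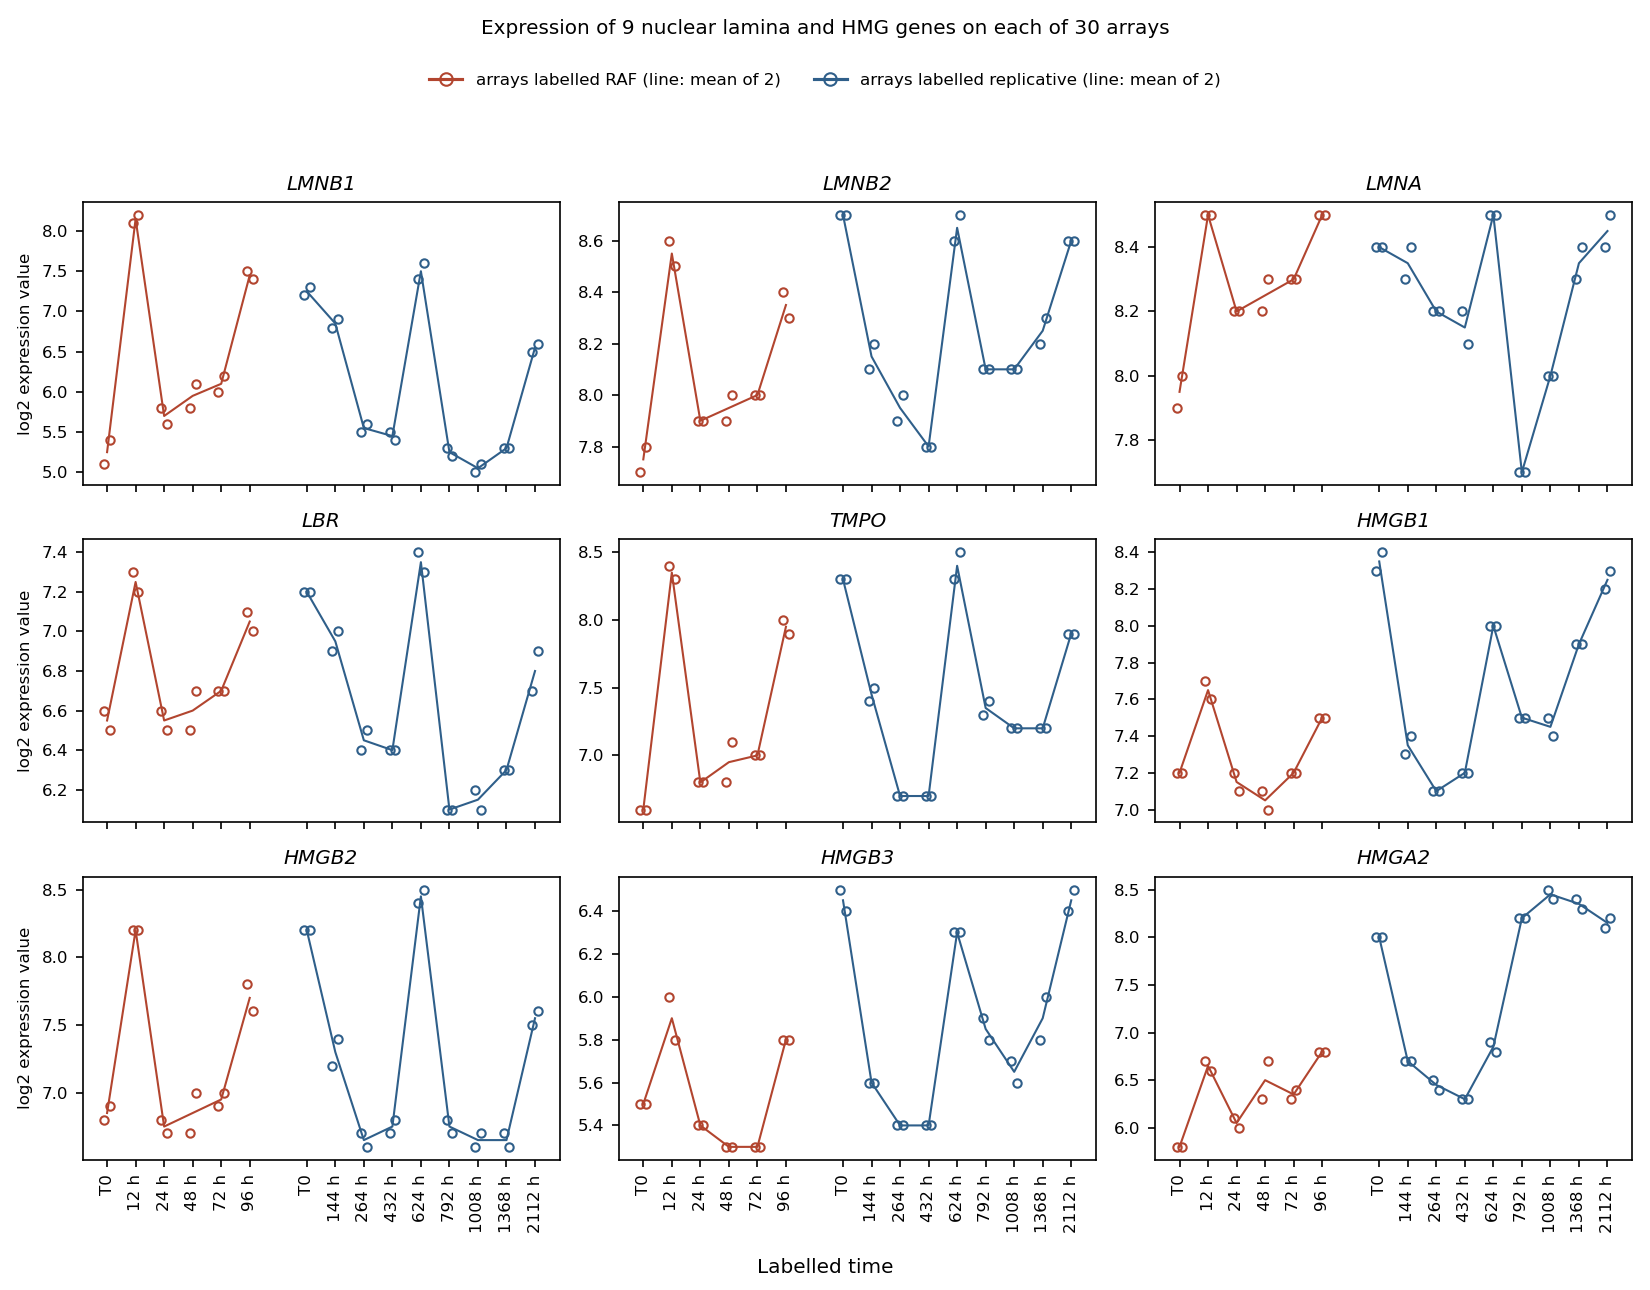
Log2 expression of each of the 9 genes (vertical axis, own scale per panel) on each array (open circles) by labelled time, RAF labels on the left of a panel and replicative labels on the right; lines join the means of 2 arrays. LMNB1 reached 8.1 and 8.2 at RAF 12 h, and HMGA2 lay at 8.0 or above at replicative T0 and from 792 h to 2112 h and at 6.9 or below elsewhere.

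LMNB2, the second B-type lamin, spanned 0.95 between its extreme group means. It read 7.7 and 7.8 at RAF T0, 8.6 and 8.5 for 12 h, 7.9 on both arrays for 24 h, 7.9 and 8.0 for 48 h, 8.0 on both for 72 h, and 8.4 and 8.3 for 96 h. In the replicative course it read 8.7 on both arrays at T0, 8.1 and 8.2 for 144 h, 7.9 and 8.0 for 264 h, 7.8 on both for 432 h and 8.6 and 8.7 for 624 h. It then read 8.1 on all 4 arrays of 792 h and 1008 h, 8.2 and 8.3 for 1368 h and 8.6 on both for 2112 h. The 4 highest groups, replicative T0, 624 h and 2112 h and RAF 12 h, overlapped one into the next and lay clear of the rest.

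LMNA, which encodes the A-type lamins A and C, moved least, with 0.80 between its extreme group means (1.74-fold). Its arrays read 7.9 and 8.0 at RAF T0, 8.5 on both for 12 h, 8.2 on both for 24 h, 8.2 and 8.3 for 48 h, 8.3 on both for 72 h and 8.5 on both for 96 h. Replicative T0 gave 8.4 on both arrays, 144 h gave 8.3 and 8.4, 264 h 8.2 on both, 432 h 8.2 and 8.1, and 624 h 8.5 on both. The label 792 h gave 7.7 on both arrays, the lowest of all, followed by 8.0 on both for 1008 h, 8.3 and 8.4 for 1368 h and 8.4 and 8.5 for 2112 h. In the order of the 15 group means only 2 of 14 neighbouring steps separated the arrays. These were the steps from replicative 432 h down to 1008 h and from RAF T0 down to replicative 792 h.

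LBR, the lamin B receptor, is an inner membrane protein that tethers heterochromatin to B-type lamins. In the RAF course it read 6.6 and 6.5 at T0, 7.3 and 7.2 for 12 h, 6.6 and 6.5 for 24 h, 6.5 and 6.7 for 48 h, 6.7 on both arrays for 72 h, and 7.1 and 7.0 for 96 h. It read 7.2 on both arrays at replicative T0, 6.9 and 7.0 for 144 h, 6.4 and 6.5 for 264 h, 6.4 on both for 432 h and 7.4 and 7.3 for 624 h. Its lowest values came next, 6.1 on both arrays for 792 h and 6.2 and 6.1 for 1008 h, before 6.3 on both for 1368 h and 6.7 and 6.9 for 2112 h. The arrays of RAF T0, 24 h and 48 h overlapped, 72 h touched only 48 h, and 12 h and 96 h lay above all 8 of these arrays.

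TMPO, whose products are the lamina-associated polypeptides LAP2, read 6.6 on both arrays at RAF T0, 8.4 and 8.3 for 12 h, 6.8 on both for 24 h, 6.8 and 7.1 for 48 h, 7.0 on both for 72 h, and 8.0 and 7.9 for 96 h. At replicative T0 it read 8.3 on both arrays, then 7.4 and 7.5 for 144 h, 6.7 on all 4 arrays of 264 h and 432 h, and 8.3 and 8.5 for 624 h. The later labels gave 7.3 and 7.4 for 792 h, 7.2 on all 4 arrays of 1008 h and 1368 h, and 7.9 on both for 2112 h. Its lowest replicative labels were thus 264 h and 432 h, whereas those of LMNB1 and LBR were 792 h and 1008 h.

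HMGB2, an HMG-box protein of dividing cells, read 6.8 and 6.9 at RAF T0, 8.2 on both arrays for 12 h, 6.8 and 6.7 for 24 h, 6.7 and 7.0 for 48 h, 6.9 and 7.0 for 72 h, and 7.8 and 7.6 for 96 h. It read 8.2 on both arrays at replicative T0, 7.2 and 7.4 for 144 h, 6.7 and 6.6 for 264 h, 6.7 and 6.8 for 432 h and 8.4 and 8.5 for 624 h. After that it read 6.8 and 6.7 for 792 h, 6.6 and 6.7 for 1008 h, 6.7 and 6.6 for 1368 h and 7.5 and 7.6 for 2112 h. The 9 lowest groups, from RAF 72 h at 6.95 to 3 replicative groups at 6.65, formed a floor in which each overlapped the next.

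HMGB1, an abundant nuclear HMG-box protein, read 7.2 on both arrays at RAF T0, 7.7 and 7.6 for 12 h, 7.2 and 7.1 for 24 h, 7.1 and 7.0 for 48 h, 7.2 on both for 72 h, and 7.5 on both for 96 h. Its replicative values were 8.3 and 8.4 at T0, 7.3 and 7.4 for 144 h, 7.1 on both for 264 h, 7.2 on both for 432 h and 8.0 on both for 624 h. They were 7.5 on both arrays for 792 h, 7.5 and 7.4 for 1008 h, 7.9 on both for 1368 h and 8.2 and 8.3 for 2112 h. Every RAF array lay below the replicative arrays of T0, 624 h, 1368 h and 2112 h.

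HMGB3, the family member best known from blood stem cells in mice, had group means between 5.30 and 6.45. These lay close to 5.5, the median of RAF T0 replicate 1. It read 5.5 on both arrays at RAF T0, 6.0 and 5.8 for 12 h, 5.4 on both for 24 h, 5.3 on all 4 arrays of 48 h and 72 h, and 5.8 on both for 96 h. In the replicative course it read 6.5 and 6.4 at T0, 5.6 on both for 144 h, 5.4 on all 4 arrays of 264 h and 432 h and 6.3 on both for 624 h, then 5.9 and 5.8 for 792 h, 5.7 and 5.6 for 1008 h, 5.8 and 6.0 for 1368 h and 6.4 and 6.5 for 2112 h. Without scanner files no background call could be made for it. HMGB1 and HMGB3 have near-identical processed pseudogenes, and cross-hybridisation was not tested.

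HMGA2, an AT-hook protein of embryonic and dividing mesenchyme, followed another course. It read 5.8 on both arrays at RAF T0, 6.7 and 6.6 for 12 h, 6.1 and 6.0 for 24 h, 6.3 and 6.7 for 48 h, 6.3 and 6.4 for 72 h, and 6.8 on both for 96 h. At replicative T0 it read 8.0 on both arrays, at 144 h 6.7 on both, at 264 h 6.5 and 6.4, at 432 h 6.3 on both and at 624 h 6.9 and 6.8. The label 792 h gave 8.2 on both arrays, 1008 h 8.5 and 8.4, 1368 h 8.4 and 8.3, and 2112 h 8.1 and 8.2. The 10 arrays of replicative T0, 792 h, 1008 h, 1368 h and 2112 h read 8.0 to 8.5, and the other 20 arrays 5.8 to 6.9. The mean of the ERK list showed a gap between the same labels, although not each of its genes did. FOSL1 averaged 7.9 at 792 h and 9.3 at 624 h, while 12 of the 15 rose between these labels. The label 624 h lay on the side of the RAF arrays for HMGA2, although its arrays lay above 0 on the first principal component. What part the ERK genes' levels have in HMGA2's was not tested.

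Each of the 9 genes differed between labels within each course by limma's moderated F-test over all contrasts with T0, with Benjamini-Hochberg adjustment over the 52329 features. This test called 19.6% of all features in the RAF course and 74.2% in the replicative course, so that passing it in the replicative course was common. Adjusted p ran up to 0.00418 in the RAF course (HMGA2) and up to 1.24e-06 in the replicative course (LMNA). Among the replicative labels 144 h, 264 h and 432 h alone, 5 of the 9 passed (LMNB1, TMPO, HMGB3, LBR and HMGA2), where 3.56% of all features did. HMGB3 passed there on means of 5.60, 5.40 and 5.40 with no spread at 1 decimal. HMGB2 fell from 7.30 to 6.65 between 144 h and 264 h without passing (F-test adjusted p = 0.0666). In the fit of all replicative labels, HMGB2 passed between 144 h and 264 h (limma adjusted p = 0.000204) and HMGB3 did not (0.0923). Without those 3 labels all 9 passed, where 34% of all features did. In bulk RNA, a change in the share of cells that express a gene and a change of RNA per cell cannot be told apart.

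The RAF endpoint compares the last RAF label with the first. All 9 were higher at RAF 96 h than at RAF T0 in limma's test, against a background of 7.97% of all features called higher and 7.71% lower. Their median difference was 0.60 on the log2 scale, and that of all features was 0. LMNB1 averaged 7.45 ± 0.07 at RAF 96 h and 5.25 ± 0.21 at RAF T0 (SD, n = 2 each), and rose by 2.20 (SE 0.14, limma adjusted p = 7.18e-05). TMPO followed with a rise of 1.35 (SE 0.09, limma adjusted p = 8.95e-05). Among the lamina genes, the rises were 0.60 for LMNB2 (SE 0.06), 0.55 for LMNA (SE 0.05) and 0.50 for LBR (SE 0.08). Of the HMG genes, HMGA2 rose by 1.0 (SE 0.12, limma adjusted p = 0.000975) and HMGB2 by 0.85 (SE 0.11, limma adjusted p = 0.0014). HMGB1 and HMGB3 each rose by 0.30 (limma adjusted p = 0.00831 and 0.0127). The 24 mitotic genes all rose in the same comparison, with a median of 2.70, and their part in these differences was not tested. HMGB3 lost its call when any 1 of the 4 arrays was left out (limma adjusted p 0.0575 to 0.0612), while the other 8 kept theirs.

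Between T0 and 96 h the RAF course was not monotonic. At 12 h all 9 genes were already higher than at T0 (9.7% of features called higher, 9.73% lower), led by LMNB1 at 2.90, TMPO at 1.75 and HMGB2 at 1.35, with LMNA at 0.55 and HMGB3, the smallest, at 0.40. At 24 h against 12 h all 9 fell (6.56% called lower, 6.02% higher), LMNB1 by 2.45, TMPO by 1.55, HMGB2 by 1.45 and LMNA by 0.30. Relative to T0, LMNA alone passed at 24 h (0.25; 2.64% of features called higher, 3.26% lower), a call lost in 3 of the 4 fits that left out 1 array. At 48 h LMNB1 (0.70), HMGA2 (0.70) and LMNA (0.30) were higher (3.96% called higher, 4.35% lower), and at 72 h LMNB1 (0.85), HMGA2 (0.55), TMPO (0.40), LMNA (0.35) and LMNB2 (0.25) were (4.34% higher, 4.47% lower). HMGB1, HMGB2 and HMGB3 lay between -0.20 and 0.10 of T0 from 24 h to 72 h and did not pass there.

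No member passed limma's test from 24 h to 48 h or from 48 h to 72 h, steps in which 0 of 52329 features did. At an unadjusted p under 0.05, 1 member passed in each of these steps, as did 6145 and 5654 of all features. From 72 h to 96 h, 7 genes rose (2.63% of features called higher, 2.18% lower), among them LMNB1 by 1.35, TMPO by 0.95, HMGB2 by 0.75 and HMGB3 by 0.50, while HMGA2 (0.45) and LMNA (0.20) did not pass. Several of these counts fell when 1 array was left out. Calls over all features fell as well on leaving out 1 array. They numbered 1603 to 2565 in place of 4608 for 72 h against T0, and 544 to 1103 in place of 2517 for 96 h against 72 h. For 48 h against T0 they numbered 2236 to 3313 in place of 4345, and the members 1 to 4 in place of 3. Why calls were lost was not tested. Without RAF T0 replicate 1, the members called at 12 h to 72 h against T0 numbered 11 in place of 18, with 0 at 24 h, 1 at 48 h and 1 at 72 h. Leaving out any 1 of the 4 arrays compared left 1 or 2 calls at 72 h against T0, and 3 to 5 calls at 96 h against 72 h.

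**Figure D2:**
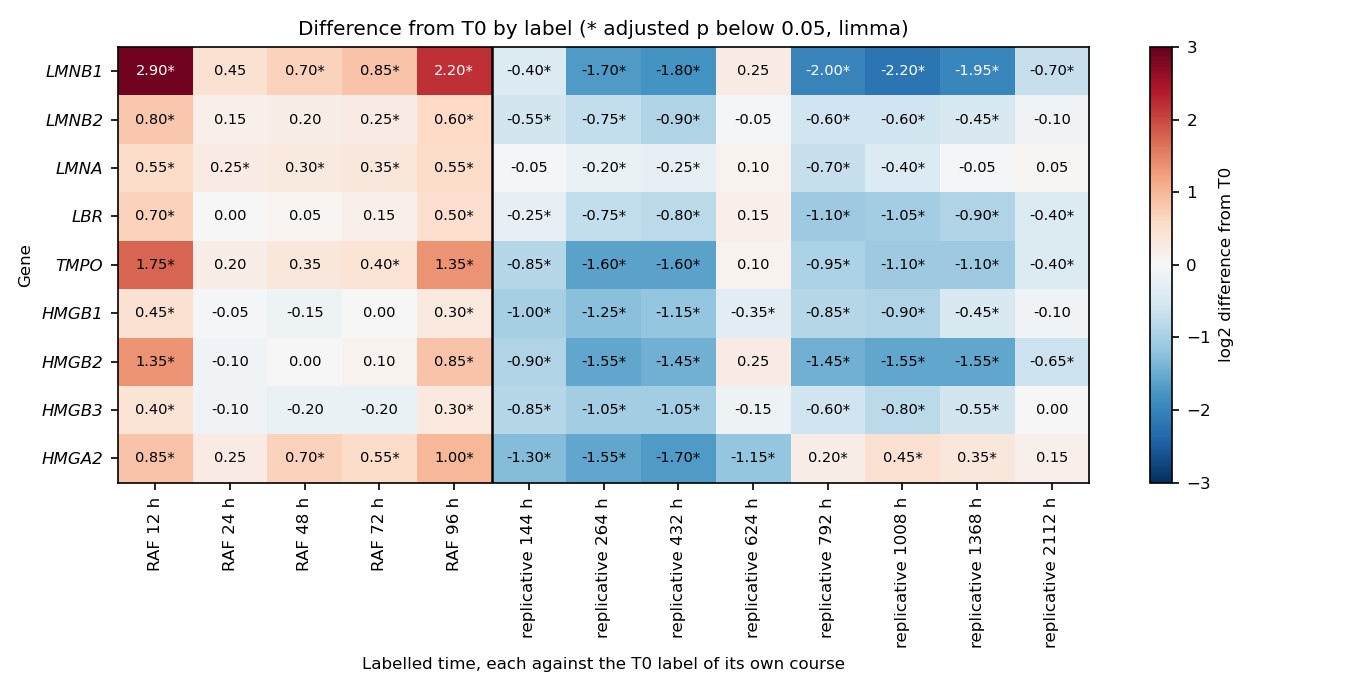
Difference of each labelled time from the T0 label of its own course (log2, colour and number) for the 9 genes, RAF labels left of the line and replicative labels right of it, with an asterisk where limma's adjusted p was below 0.05. LMNB1 ran to 2.90 at RAF 12 h and to -2.20 at replicative 1008 h, and HMGA2 alone was positive from replicative 792 h to 1368 h.

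At the replicative endpoint, 4 of the 9 genes were lower at 2112 h than at T0, where 1.46% of all features were called lower and 1.34% higher. The median over the 9 genes was -0.10. LMNB1 averaged 6.55 ± 0.07 at 2112 h and 7.25 ± 0.07 at T0 (SD, n = 2 each) and fell by 0.70 (SE 0.08, limma adjusted p = 0.000619). HMGB2 fell by 0.65 (SE 0.08, limma adjusted p = 0.000983), and LBR and TMPO by 0.40 each (limma adjusted p = 0.00907 and 0.00522). LMNB2 (-0.10), HMGB1 (-0.10), HMGB3 (0.00), LMNA (0.05) and HMGA2 (0.15, 95% interval 0.02 to 0.28, limma adjusted p = 0.258) did not pass. In the same comparison 19 of 24 mitotic genes fell, with a median of -0.50, and their part was not tested. The LBR call was lost without replicate 1 of 2112 h or without either T0 array (limma adjusted p up to 0.0998). TMPO's was lost without replicate 1 of 2112 h (limma adjusted p = 0.053), leaving 2 calls, LMNB1 and HMGB2. With the 6 arrays of 144 h, 264 h and 432 h out of the model, 4 genes were called.

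The path between these labels passed through a minimum, a peak and a second minimum for most of the genes. At 144 h 8 of 9 genes were lower than at T0 and at 264 h and 432 h all 9 were, but 28.6%, 26.5% and 26.8% of all features were also called lower there, and 30.1%, 30.4% and 31.2% higher. HMGA2 fell most at 144 h, by 1.30, followed by HMGB1 by 1.0 and HMGB2 by 0.90, and LMNA (-0.05) did not pass. From 144 h to 264 h 7 genes fell (4.66% of features called lower, 5.57% higher), LMNB1 most, by 1.30, and without replicate 2 of 144 h 4 did. From 264 h to 432 h no member passed limma's test, in a step with 0.411% of features called higher and 0.39% lower, and 2 members had an unadjusted p under 0.05. At 432 h LMNB1 was lower by 1.8, HMGA2 by 1.70, TMPO by 1.60, HMGB2 by 1.45 and LMNA by 0.25. From 432 h to 624 h all 9 rose (21.1% called higher, 24.4% lower), LMNB1 by 2.05 and TMPO and HMGB2 by 1.70 each. At 624 h against T0, HMGA2 (-1.15) and HMGB1 (-0.35) fell, against 6.67% of features called lower and 7.17% higher, and the others lay between -0.15 and 0.25. These steps cross the 2 sides of the first principal component between T0 and 144 h and between 432 h and 624 h.

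From 624 h to 792 h, 8 genes fell and HMGA2 rose, in a step with 15.3% of features called lower and 15.8% higher. Both labels lay above 0 on the first principal component, but apart from each other. The arrays of 624 h scored 25.24 and 26.26 on it, and those of 792 h 82.86 and 79.86. LMNB1 averaged 5.25 ± 0.07 at 792 h, against 7.50 ± 0.14 at 624 h (SD, n = 2 each), and fell by 2.25 (SE 0.08, limma adjusted p = 4.99e-10). HMGB2 fell by 1.70, LBR by 1.25, TMPO by 1.05, LMNA by 0.80, LMNB2 by 0.55, HMGB1 by 0.50 and HMGB3 by 0.45. HMGA2 averaged 8.20 ± 0.00 at 792 h, against 6.85 ± 0.07 at 624 h (SD, n = 2 each) and rose by 1.35 (SE 0.06, limma adjusted p = 3.79e-09). All 24 mitotic genes fell in this step, with a median of -2.90. Of 15 ERK genes 12 rose and 1, FOSL1, fell by 1.40, with a median over the list of 1.60. Of 9 fibroblast markers 6 fell and 2 rose, with log2 differences of -3.05 for LUM, -2.95 for DCN and 0.70 for PDGFRB. The part of these lists in the members' changes was not tested.

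Against T0, 8 genes were lower and HMGA2 higher at both 792 h (11.7% called lower, 13.1% higher) and 1008 h (11.3% and 11.7%). LMNB1 was lower by 2.0 and 2.20 at these labels, HMGB2 by 1.45 and 1.55, LBR by 1.10 and 1.05, and LMNA by 0.70 and 0.40. HMGA2 was higher by 0.20 and 0.45. The call for HMGA2 at 792 h was lost without any 1 of the 4 arrays (limma adjusted p 0.0831 to 0.0918), and that at 1008 h held throughout. At 1368 h, 7 genes were lower and HMGA2 was higher, by 0.35 (8.41% called lower, 8.74% higher), and LMNA was back at -0.05 and did not pass. All comparisons with a T0 label share its 2 arrays.

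The B-type lamin LMNB1 and HMGB2 stayed low from 792 h to 1368 h and both rose by 2112 h. From 1368 h to 2112 h, LMNB1 rose by 1.25, HMGB2 by 0.90, TMPO by 0.70, HMGB3 by 0.55, LBR by 0.50, and HMGB1 and LMNB2 by 0.35 each, 7 genes against 5.6% of features called higher. HMGA2 fell by 0.20 (5.99% called lower), a call lost without any 1 of the 4 arrays. LMNA and HMGA2 rose from 792 h to 1008 h, by 0.30 and 0.25 (1.17% called higher, 1.36% lower), calls lost without any 1 of the 4 arrays. HMGB1 and LMNA were the 2 genes that rose from 1008 h to 1368 h, by 0.45 and 0.35 (2.96% called higher, 2.25% lower).

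Measured within 21% oxygen, 2112 h against 144 h, 6 genes rose and LMNB1 fell, in a comparison across the first principal component with 29.8% of features called higher and 30.9% lower. HMGA2 averaged 8.15 ± 0.07 at 2112 h, against 6.70 ± 0.00 at 144 h (SD, n = 2 each) and rose by 1.45 (SE 0.06, limma adjusted p = 4.74e-09). HMGB1 rose by 0.90, HMGB3 by 0.85, LMNB2 and TMPO by 0.45 each and HMGB2 by 0.25. The HMGB2 call was lost without replicate 1 of 144 h or replicate 2 of 2112 h (limma adjusted p up to 0.152). LMNB1 fell by 0.30 (SE 0.08, limma adjusted p = 0.00532), while LBR (-0.15, limma adjusted p = 0.0781) and LMNA (0.10) did not pass. Mitotic genes rose in 24 of 24 here, with a median of 1.08, so that LMNB1 and the mitotic list had opposite directions between these labels.

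**Figure D3:**
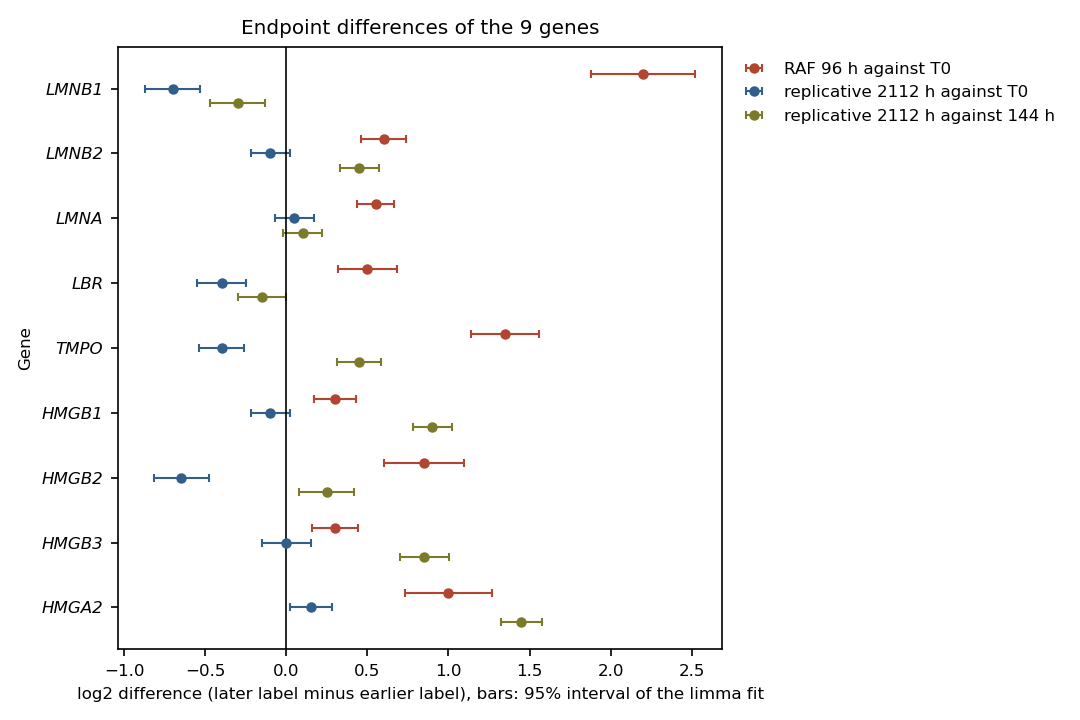
Differences of the 9 genes (rows) in 3 endpoint comparisons on the log2 scale, the later label minus the earlier one, with bars for the 95% interval of limma's fit. LMNB1 lies at 2.20 in the RAF comparison and at -0.70 and -0.30 in the replicative ones, and HMGA2 at 1.0, 0.15 and 1.45.

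The endpoint difference of the RAF course exceeded that of the replicative course for all 9 genes in the model of all 30 arrays (7% of features called higher, 6.66% lower). The excess was 2.90 for LMNB1 (SE 0.15, limma adjusted p = 3.28e-10), 1.75 for TMPO (SE 0.11) and 1.5 for HMGB2 (SE 0.13), and smallest for HMGB3 at 0.30 (SE 0.09, limma adjusted p = 0.0394). HMGB3's call was lost in 6 of 8 fits that each left out 1 array. The 2 starting groups themselves differed, as a comparison chosen after the values had been seen showed. RAF T0 was lower than replicative T0 in all 9 genes, where 28.2% of features were called lower and 30.7% higher. HMGA2 averaged 5.80 ± 0.00 at RAF T0 and 8.0 ± 0.00 at replicative T0 (SD, n = 2 each), a difference of -2.20. LMNB1 differed by -2.0, TMPO by -1.70 and LMNA, the smallest, by -0.45.

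The levels were also set beside those of the mitotic genes on each side of the first principal component. Over the 6 labels above 0 on that component, Pearson's r with the mean of the mitotic list was 0.999 for LMNB2, 0.969 for HMGB3, 0.950 for LMNB1, 0.848 for LMNA and -0.583 for HMGA2. Over the 9 labels below 0 it was 0.992 for LMNB1, 0.987 for TMPO and LMNB2, 0.955 for LMNA, 0.889 for HMGB1, 0.830 for HMGB3 and 0.813 for HMGA2. Spearman's rho on that side was 0.627 for HMGB1, 0.468 for HMGB3 and 0.833 for HMGA2. Over the 6 labels above 0, rho was -0.886 for HMGA2 and ran from 0.771 (LMNA) to 0.986 (LMNB2) for the others. These are descriptions over few group means, in which a gene and the mitotic list come from the same arrays and share their normalization. Among the members themselves, HMGB2 and TMPO ran closest on the first side (0.996 over 6 labels) and LMNB1 and TMPO on the second (0.997 over 9).

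**Figure D4:**
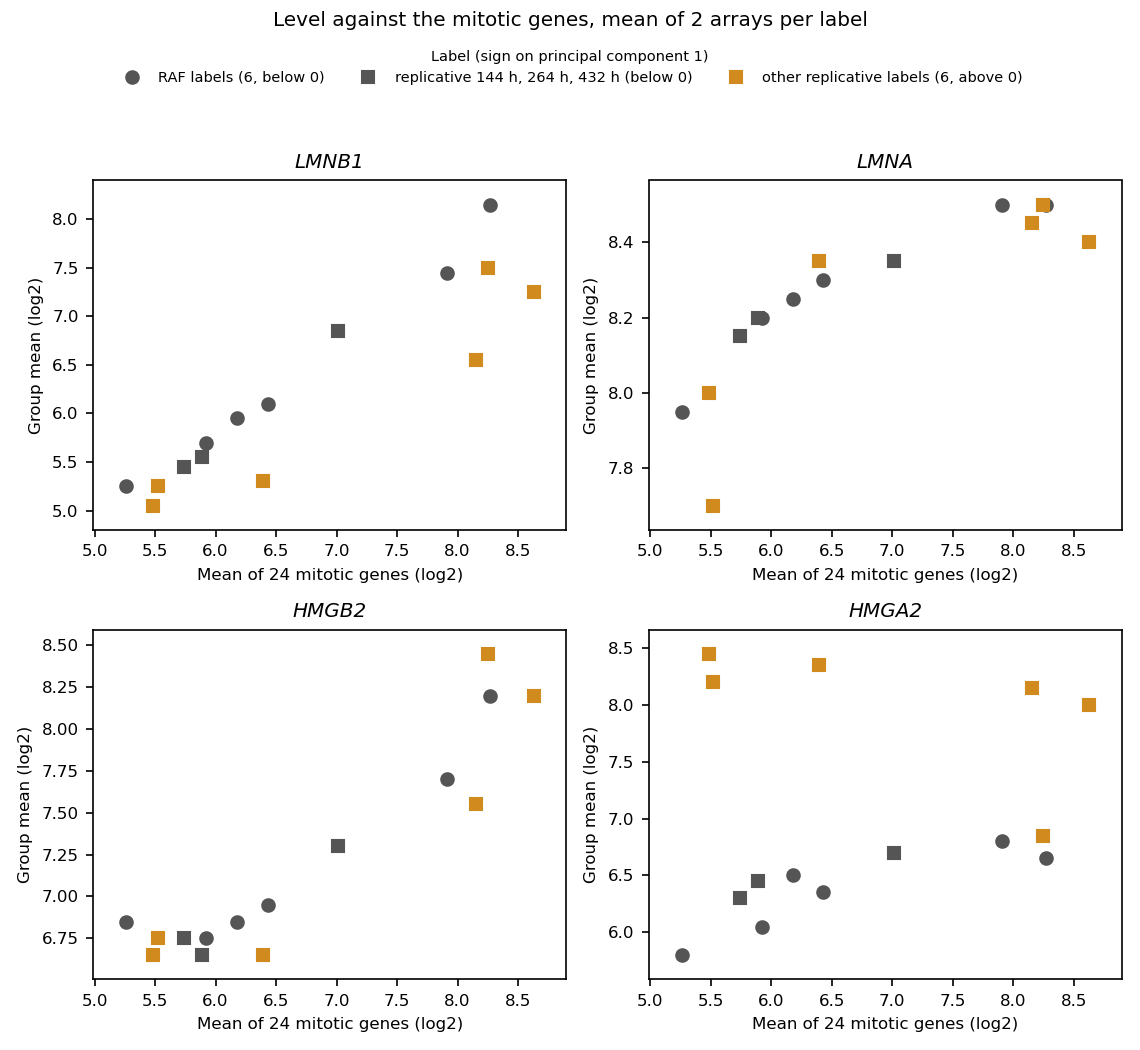
Group mean of LMNB1, LMNA, HMGB2 and HMGA2 (vertical axis, log2) against the mean of 24 mitotic genes (horizontal axis, log2), 1 point per label (mean of 2 arrays), coloured by the sign on the first principal component. LMNB1 and HMGB2 climb with the mitotic mean on both sides, and HMGA2 splits into points at 8.0 or above and points at 6.85 or below.

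The genes most like 4 of the members were sought among 19911 other named genes by Pearson's r over the 15 group means. Closest to LMNB1 were the histone gene HIST1H2AH (0.986), thymidine kinase TK1 (0.982) and CDCA7 (0.979). Closest to HMGB2 were the chromatin ATPase ATAD2 (0.985), the kinetochore gene KNTC1 (0.980) and the replication licensing inhibitor GMNN (0.980). LMNA had looser companions, YBX1 (0.938), FKBP3 (0.932) and ANKRD28 (0.926). Those of HMGA2 were the NuRD subunit GATAD2A (0.989), the focal adhesion protein PXN (0.987) and the mitochondrial ribosome gene MRPS35 (0.985), each highest at replicative 1008 h and lowest at RAF T0, as HMGA2 was. The 15 group means lie on 2 sides of the first principal component, and these values of r carry no test.

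Other genes of the nuclear envelope gave mixed directions. At RAF 96 h against T0, 3 of 16 envelope and LINC complex genes rose and 4 fell, with a median of 0.10, where 7.97% of features were called higher and 7.71% lower. NRM, an inner membrane protein, rose by 0.85 and SYNE2, a giant nesprin, by 0.50, while the LEM-domain protein LEMD3 fell by 0.50 and TOR1AIP1, the lamina-bound LAP1, by 0.40. At replicative 2112 h against T0, SYNE1 alone of the 16 passed, with a fall of 0.45 (1.46% of all features called lower, 1.34% higher). Against 144 h, where 29.8% of features were called higher and 30.9% lower across the first principal component, 11 rose and 2 fell, among them the torsin TOR1A at 1.15, the chromatin bridging factor BANF1 at 0.80 and the LINC protein SUN1 at -0.65. Of 4 measured genes that process prelamin A, RCE1 (0.20) rose and FNTA (-0.25) fell at RAF 96 h. At replicative 2112 h against T0 they lay between -0.10 and 0.05, and none passed limma's test.

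Most nuclear pore genes were higher at RAF 96 h. At RAF 96 h against T0, 19 of 28 rose and 1 fell (7.97% and 7.71% of all features), with a median of 0.30, NDC1 by 0.95 and SEH1L by 0.80 against RANBP2, which fell by 0.20. At replicative 2112 h, 3 of 28 fell against T0 and none rose, NUP155 and NUP43 by 0.30 each, where 1.46% of all features were called lower. Against 144 h 20 rose and 1 fell (29.8% and 30.9% of all features), with a median of 0.45. Of 18 heterochromatin and histone chaperone genes, 10 rose and none fell at RAF 96 h (7.97% and 7.71% of all features), led by the DNA methyltransferase DNMT1 and the H3K27 methyltransferase EZH2 at 1.05 each. EZH2 and SUV39H2, an H3K9 methyltransferase, fell by 0.40 each at replicative 2112 h against T0. Against 144 h the histone variant MACROH2A2 fell by 1.35, while SUV39H1 rose by 1.10.

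Calls among the further HMG genes were mixed in direction. Of 5 nucleosome-binding HMGN genes, HMGN2 alone passed at RAF 96 h against T0, with a rise of 0.80, and at replicative 2112 h against T0 the 5 lay between -0.35 and 0.00 without a call. Of 11 other HMG-box genes, 3 rose and 1 fell at RAF 96 h (7.97% and 7.71% of all features), with SSRP1, a subunit of the histone chaperone FACT, at 0.70 and BBX at -0.55. At replicative 2112 h against 144 h, 6 of these 11 rose and 3 fell, as did 2 and 1 of the 5 HMGN genes (29.8% and 30.9% of all features). At 792 h against 624 h, 6 HMG-box genes rose and 2 fell, and 3 HMGN genes fell (15.8% higher and 15.3% lower). TOX, an HMG-box factor of lymphocyte development, averaged 5.25 at replicative 2112 h and 8.05 at 144 h and fell by 2.80, the largest difference in that list. Among 10 receptors of extracellular HMGB1 and regulators of HMGA2, 4 rose and none fell at RAF 96 h (7.97% and 7.71% of all features). IGF2BP3 rose by 0.55 and IGF2BP1 by 0.45. At replicative 2112 h against T0 the 10 genes lay between -0.05 and 0.20 without a call. Against 144 h, 7 rose and none fell (29.8% and 30.9% of all features), with a median of 0.25, IGF2BP3 by 0.55 and DICER1, which makes the let-7 RNAs that target HMGA2, by 0.50.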

How the data were processed

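The authors deposited 1 table of log2 values for 52329 features on 30 arrays, rounded to 1 decimal. The median was 5.5 on the array of RAF T0 replicate 1, and 5.51 over the feature means of the 30 arrays. How features were summarised and arrays normalized, and the log base, is not given in the sources used here, and the log2 scale was taken from the range of the values. Of the features, 21055 carry 1 gene symbol in the platform's probe table, 1406 several and 29868 none. Scanner files were not used here, so background could not be assessed, and 2 arrays per group limit the precision.

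Groups came from the labels. Values were fitted without further normalization with lmFit and eBayes of limma 3.58.1 (R 4.3.3), within each course (residual degrees of freedom 6 and 9) and, for the difference of the endpoint effects, over all 30 arrays (15). P-values were two-sided and adjusted by Benjamini-Hochberg over the 52329 features, with a threshold of 0.05. The fitting was tested on simulated data with 1 spread for all features of a course and independent arrays. That test cannot show how the fit does where spread differs between features or replicates are technical. The members and lists were chosen with earlier results of these data known. Named beside the members are the 3 genes most correlated with each of 4 members, and up to 2 called genes with the largest rise and fall per list and endpoint comparison. Alternatives were quantile normalization, an intensity trend, brighter features only, a replicate block, 1 model of all arrays, and leaving out arrays.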

Additional observations from a re-analysis of the deposited data

Results flagged for a closer look

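The effect at the endpoint differed between the courses for all 9 genes by limma's interaction contrast over 30 arrays, RAF 96 h over RAF T0 minus replicative 2112 h over replicative T0. On the log2 scale the difference was 2.90 for LMNB1, 1.75 for TMPO, 1.5 for HMGB2, 0.90 for LBR, 0.85 for HMGA2, 0.70 for LMNB2, 0.50 for LMNA, 0.40 for HMGB1 and 0.30 for HMGB3. The adjusted p ran from 3.28e-10 (LMNB1) to 0.0394 (HMGB3). For LMNB1, TMPO, HMGB2 and LBR the effects had opposite signs and passed in each course, though the replicative calls of LBR and TMPO depended on single arrays. For the other 5 genes the replicative effect lay between -0.10 and 0.15 and did not pass. The starting groups differed too: RAF T0 was lower than replicative T0 in all 9 genes, from -0.45 for LMNA to -2.20 for HMGA2 (28.2% of features called lower, 30.7% higher).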

How the results depend on the processing

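None of the 163 member differences that passed changed sign under the alternatives run, and 7 of the 80 that did not pass, between -0.15 and 0.10, did. An intensity trend, brighter features, the replicate block and 1 model of all arrays leave a difference as it is. Only quantile normalization and leaving out single arrays could turn a sign, so that this count says little of how firm the differences are. The members called at RAF 96 h against T0 numbered 8 in each fit without 1 array and 9 otherwise, and at replicative 2112 h against T0 they numbered 2 to 4 on leaving out 1 array, with 2 without replicate 1 of 2112 h. Leaving out 1 array gave 6 to 7 for 2112 h against 144 h and 8 to 9 for the difference of the endpoints. It gave 11 to 19 in place of 18 for RAF 12 h to 72 h against T0, with 11 without RAF T0 replicate 1, and 53 to 55 in place of 54 for replicative 144 h to 1368 h against T0. Between neighbouring labels it gave 21 to 27 in place of 25 for RAF and 40 to 46 in place of 45 for the replicative course. The joint test over replicative 144 h, 264 h and 432 h alone called 5 of 9, a fit with fewer groups and arrays. Of single-gene results, 926 kept their side of the threshold on leaving out 1 array, 78 lost a call and 4 gained one. HMGA2 at 792 h against T0 also lost its call in the model of all 30 arrays (limma adjusted p = 0.114). At 624 h against T0, 4 genes in place of 2 were called with an intensity trend or with brighter features only. At RAF 48 h against T0, 6 in place of 3 were called with brighter features only and 5 in the model of all 30 arrays. The cause was not tested. The labels give same-numbered replicates no more than a shared number. Their deviations correlated at -0.06 to 0.36 over 15 pairs of RAF groups (median 0.02, 3 pairs above 0.10). Over 36 pairs of replicative groups the correlations were -0.28 to 0.31 (median 0.03, 9 pairs above 0.10). Whether same-numbered arrays share a batch was not tested. With the replicate block the endpoint counts were 9, 4, 7 and 9, and 3 genes in place of 5 were called at RAF 72 h against T0. No member has several features, so averaging them was not run. Rounding to 1 decimal leaves many pairs of arrays with no spread.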
